A study of Mus musculus with 6 samples.

Results

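The HoxB cluster is 1 of the 4 groups of Hox genes in the mouse genome, and its 10 genes, *Hoxb1* to *Hoxb9* and *Hoxb13*, are described here in the order of their position on chromosome 11. The members were taken by gene symbol, and all 10 were among the 20631 genes measured, with 15143 genes entering the test and 5 of the 10 members among them. The cells were NMPs (neuromesodermal progenitors, caudal cells that can form both spinal cord and presomitic mesoderm) made in culture from mouse ESCs by bFGF for 2 days and then bFGF with the WNT agonist CHIR99021 for 1 day. The 3 conditions, with 2 samples each, were N2B27 medium with the vehicle DMSO, with 25 nM RA (retinoic acid) or with 1 µM RA, each for 2 h after bFGF and CHIR99021 had been removed. All 6 samples share this derivation and a B27 supplement free of retinoids. The labels give the ESC strain as 129 R1 and the study's methods give C57BL/6, and which applies was not settled. The ESCs had been kept on feeder fibroblasts, and each pair of samples came from separate dishes called technical replicates, so p-values measure the spread between dishes of one experiment.

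Hox genes encode homeodomain transcription factors that give cells their identity along the axis from head to tail. Within a cluster the order of the genes on the chromosome follows the order in which they are switched on in the embryo, beginning at the 3′ end, where *Hoxb1* lies, and ending at the 5′ end, where *Hoxb13* lies. RA enters the nucleus and switches on transcription through its receptors, the RARs, and genes near the 3′ end of Hox clusters are long known to respond to RA in the hindbrain and caudal embryo.

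The libraries held between 31753556 and 42029348 estimated counts of RefSeq transcripts per sample. RPKM, an abundance scaled by transcript length and sequencing depth, was summed over the transcripts of a gene and is used here for levels. The NMP label was checked against a list of 10 markers, of which *T* had a mean of 375 RPKM and *Sox2* 5.20 RPKM in DMSO, while *Cdx4* was near 0 in all conditions (0.0276 to 0.0723 RPKM). The known RA-responsive genes *Rarb*, *Cyp26a1* and *Dhrs3* rose at both doses (3 of 3), with log2 fold changes of 1.76 to 4.91 at 25 nM and 2.40 to 5.57 at 1 µM.

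In genome build mm10 all 10 genes lie on the plus strand of chromosome 11. *Hoxb1* (NM_008266, from 96365758 to 96368253), which gives the fourth hindbrain segment its identity, is the 3′ end of the cluster. *Hoxb2* (NM_134032, from 96351632 to 96354014), a hindbrain gene, begins 14.1 kb upstream of the *Hoxb1* start. *Hoxb3* (NM_001079869 and NM_010458, from 96323126 to 96347930), which acts in the posterior hindbrain, begins 42.6 kb upstream. *Hoxb4* (NM_010459, from 96318267 to 96321638), known from the caudal hindbrain and neck and from blood stem cells, begins 47.5 kb upstream. The trunk genes follow, with *Hoxb5* (NM_008268, from 96303512 to 96306121) at 62.3 kb, *Hoxb6* (NM_008269, from 96299171 to 96301569) at 66.6 kb, *Hoxb7* (NM_010460, from 96286646 to 96290163) at 79.1 kb, *Hoxb8* (NM_010461, from 96281905 to 96285325) at 83.9 kb and *Hoxb9* (NM_008270, from 96271330 to 96276593) at 94.4 kb. *Hoxb13* (NM_008267, from 96194361 to 96196599), a gene of the tail and the prostate, stands apart at 171 kb. The counts come from the exons of these transcripts. In the GENCODE annotation the antisense gene *Hoxb3os* (minus strand, from 96343072 to 96354691) covers all of *Hoxb2* and part of *Hoxb3*, and *Gm11536* (minus strand, from 96336299 to 96342108) lies within *Hoxb3*. *Hoxb5os* (minus strand, from 96291024 to 96306910) covers *Hoxb5* and *Hoxb6*. Whether strand was used in counting is not stated, so reads of such pairs cannot be told apart, and *Hoxb3os* itself was not analysed here.

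The sequence just upstream of the start is given for the 3 members for which it was available (RefSeq, build GRCm38.p6). They are *Hoxb1* at the 3′ end, *Hoxb4*, the farthest upstream of the genes called, and *Hoxb8*, among the genes near 0 counts. Each sequence is the 250 bases before the start on the plus strand, written 5′ to 3′. They lie at chr11:96365508-96365757, chr11:96318017-96318266 and chr11:96281655-96281904. Capitals mark every match to the motifs searched on both strands, which were the RAR half-site, as AGGTCA or with other letters as AGTTCA, then as GGGTCA and lastly as GGTTCA, the Hox and Pbx motif TGATNNAT, the Meis motif TGACAG and the Cdx motif, as TTTATG or in its other form TTTATA. The 2 Cdx forms differ at the last base, and no match overlaps another.
Hoxb1: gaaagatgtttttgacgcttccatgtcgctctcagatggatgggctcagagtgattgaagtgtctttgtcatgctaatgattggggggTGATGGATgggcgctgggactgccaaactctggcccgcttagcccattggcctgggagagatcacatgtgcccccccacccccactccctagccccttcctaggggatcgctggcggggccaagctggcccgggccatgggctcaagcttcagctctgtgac
Hoxb4: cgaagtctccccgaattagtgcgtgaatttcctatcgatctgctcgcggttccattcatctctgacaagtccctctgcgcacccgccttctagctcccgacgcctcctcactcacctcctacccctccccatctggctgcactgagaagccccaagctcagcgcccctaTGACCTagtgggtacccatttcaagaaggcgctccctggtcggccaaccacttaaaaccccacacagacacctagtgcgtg
Hoxb8: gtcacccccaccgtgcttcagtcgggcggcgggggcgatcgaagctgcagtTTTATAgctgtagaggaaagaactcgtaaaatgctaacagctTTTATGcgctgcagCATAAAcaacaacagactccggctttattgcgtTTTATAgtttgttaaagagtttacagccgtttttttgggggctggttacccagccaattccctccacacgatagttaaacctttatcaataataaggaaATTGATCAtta
The *Hoxb1* window held 1 match to TGATNNAT, TGATGGAT on the plus strand, beginning 162 bases before the start, and 7.68% of 32851 windows of the same length held this motif. The *Hoxb4* window held 1 half-site, AGGTCA on the minus strand, 81 bases before the start, and 38.6% of windows held a half-site. The *Hoxb8* window held 4 Cdx motifs (20.9% of windows held at least 1) and 1 TGATNNAT match on the minus strand, 11 bases before the start. TGACAG was in none of the 3 and in 15.9% of windows. Half-sites repeated in the same direction 2 bases apart (0.174% of windows) or 5 bases apart (0.0883%), the spacings of known RA response elements, were in none of these 3 windows. These matches describe letters in a short window and say nothing of enhancers elsewhere.

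In DMSO the cluster was already transcribed at its 3′ end. The mean level was 3.997 ± 0.840 RPKM (SD, n = 2) for *Hoxb1*, 2.31 ± 0.272 for *Hoxb2* and 0.484 ± 0.00996 for *Hoxb3*, and these 3 levels followed position without overlap of the duplicates. *Hoxb9* came next, out of the order of position, at 0.145 ± 0.0190 RPKM. *Hoxb6*, *Hoxb7*, *Hoxb4*, *Hoxb8*, *Hoxb13* and *Hoxb5* had mean levels from 0.0505 down to 0.0154 RPKM, and in that order each overlapped its neighbour, so they could not be ranked.

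With RA the order of levels followed position through *Hoxb4*. At 25 nM RA the mean levels were 8.65 RPKM for *Hoxb1*, 5.61 for *Hoxb2*, 0.966 for *Hoxb3* and 0.194 for *Hoxb4*, with *Hoxb4* overlapping *Hoxb9* (0.168). At 1 µM RA they were 9.02, 6.36, 0.974 and 0.241 RPKM in the same order, and *Hoxb4* lay above *Hoxb9* (0.106) in every sample. *Hoxb1* and *Hoxb2* together made up between 86.9% and 91.0% of the summed HoxB RPKM in all 6 samples. That sum was 7.93 and 6.35 RPKM with DMSO, 16.7 and 15.1 with 25 nM RA, and 16.9 in both samples with 1 µM RA. The cluster as a whole was higher in each RA sample than in either DMSO sample, and most of it came from the 2 genes at the 3′ end.

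**Figure D1:**
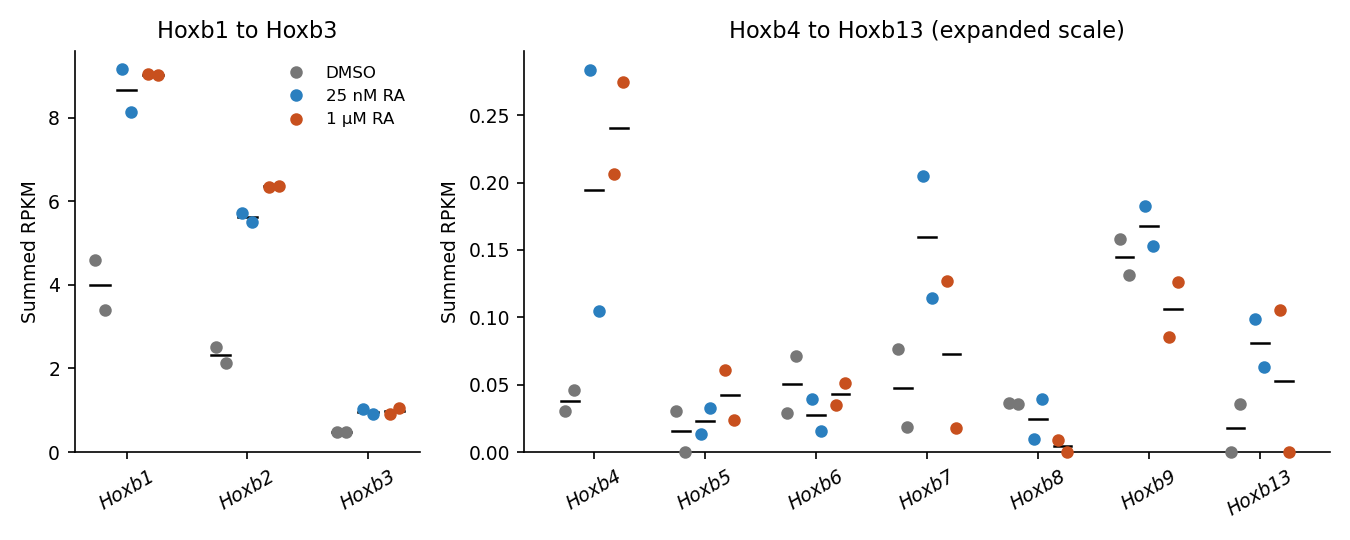
Summed RPKM of each HoxB gene in each of the 6 samples (points) with the mean of each pair (black line), by condition, in the order of position from the 3′ end, with *Hoxb4* to *Hoxb13* on an expanded scale. *Hoxb1*, *Hoxb2*, *Hoxb3* and *Hoxb4* lie higher in every RA sample than in either DMSO sample, and the genes beyond *Hoxb4* stay at or below 0.205 RPKM.

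With 25 nM RA for 2 h, *Hoxb1*, *Hoxb2*, *Hoxb3* and *Hoxb4* rose. These 4 of the 10 members were called at an adjusted p under 0.1, where 8.05% of all genes tested were called in either direction and 4.5% were called higher. At 1 µM RA 4 of the 10 members rose, again *Hoxb1*, *Hoxb2*, *Hoxb3* and *Hoxb4*, where 19.7% of all genes were called in either direction and 8.54% higher. Both comparisons use the same DMSO samples. *Hoxb9* was tested and not called, and *Hoxb5*, *Hoxb6*, *Hoxb7*, *Hoxb8* and *Hoxb13* had too few counts to enter the test. *Hoxb4* entered it only through its counts in the RA samples. The median log2 fold change of the 5 members tested was 1.10 at 25 nM and 1.16 at 1 µM, beside 0.00 over all genes tested at 1 µM. As *Hoxb4* is among the 5, the count of members called and these medians follow in part from the filter. In bulk RNA, more cells expressing a gene and more of its RNA per cell cannot be told apart.

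*Hoxb1* had 4.59 and 3.403 RPKM in the DMSO samples, 9.16 and 8.14 at 25 nM, and 9.03 and 9.01 at 1 µM RA. The RA samples did not overlap the DMSO samples, and the widest gap within a pair was that of DMSO. Those 2 DMSO samples had 491 and 299 counts, and the exact Poisson 95% intervals of their CPM (counts scaled to a common library total), 10.7 to 12.8 and 7.75 to 9.75, did not meet. Such intervals cover counting error only. On the log2 scale *Hoxb1* rose by 1.10 (standard error 0.10, adjusted p = 2.4e-26, edgeR likelihood ratio test) at 25 nM, a 2.14-fold rise (95% interval 1.87 to 2.45). At 1 µM it was 1.16 (standard error 0.10, adjusted p = 8.6e-30, same edgeR test), a 2.23-fold rise (1.95 to 2.55). Without the second DMSO sample these values were lowest, and without the first they were highest, over a range of 0.91 to 1.33 at 25 nM and 0.98 to 1.39 at 1 µM.

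*Hoxb2* had 2.50 and 2.12 RPKM in DMSO, 5.71 and 5.51 at 25 nM, and 6.35 and 6.37 at 1 µM RA. The 3 conditions did not overlap, and the samples with 1 µM RA were the highest. Its log2 fold changes were 1.26 (standard error 0.10, adjusted p = 4.5e-33, edgeR likelihood ratio test) at 25 nM and 1.44 (standard error 0.10, adjusted p = 1.9e-45) at 1 µM, rises of 2.40-fold and 2.72-fold. *Hoxb2* thus had a larger log2 fold change than *Hoxb1* at each dose, and no test was made between the genes. The ratio of *Hoxb1* to *Hoxb2* RPKM was 1.83 and 1.61 in DMSO, 1.60 and 1.48 at 25 nM, and 1.42 and 1.42 at 1 µM. The lower DMSO ratio and the higher ratio at 25 nM were almost equal. As *Hoxb3os* covers *Hoxb2*, its part in these counts was not tested.

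*Hoxb3* had 0.477 and 0.491 RPKM in DMSO, 1.03 and 0.900 at 25 nM, and 0.900 and 1.05 at 1 µM RA. Every RA sample lay above both DMSO samples, and the 2 doses overlapped. Its log2 fold changes were 0.98 (standard error 0.16, adjusted p = 3.1e-08, edgeR likelihood ratio test) at 25 nM and 1.00 (standard error 0.16, adjusted p = 6.3e-09) at 1 µM, rises of 1.97-fold and 2.00-fold. The call is one of the gene as a whole. NM_001079869 begins at 96323126, while NM_010458 begins at 96343769 and lies wholly within the span of *Hoxb3os*. The 2 transcripts share exons, and the authors' estimation split the 50-base reads between them, giving whole numbers for the sum and fractions for each transcript.

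The split of *Hoxb3* reads differed widely between duplicates and did not follow the conditions. NM_010458 received 65.3% and 24.4% of the *Hoxb3* count in DMSO, 80.5% and 47.5% at 25 nM, and 44.5% and 59.7% at 1 µM RA. NM_010458 had 53.5 and 17.1 counts in DMSO, 106 and 69.4 at 25 nM, and 58.2 and 92.0 at 1 µM. Fitted as a single transcript it had 1.51 on the log2 scale (standard error 0.58, adjusted p = 0.21, edgeR likelihood ratio test) at 25 nM and 1.22 (standard error 0.59, adjusted p = 0.26) at 1 µM, so the call of *Hoxb3* was lost. NM_001079869 had log2 fold changes of 0.35 (standard error 0.60) and 0.78 (standard error 0.59) and was not called either. No *Hoxb3* transcript can be named as the one that rose.

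**Figure D2:**
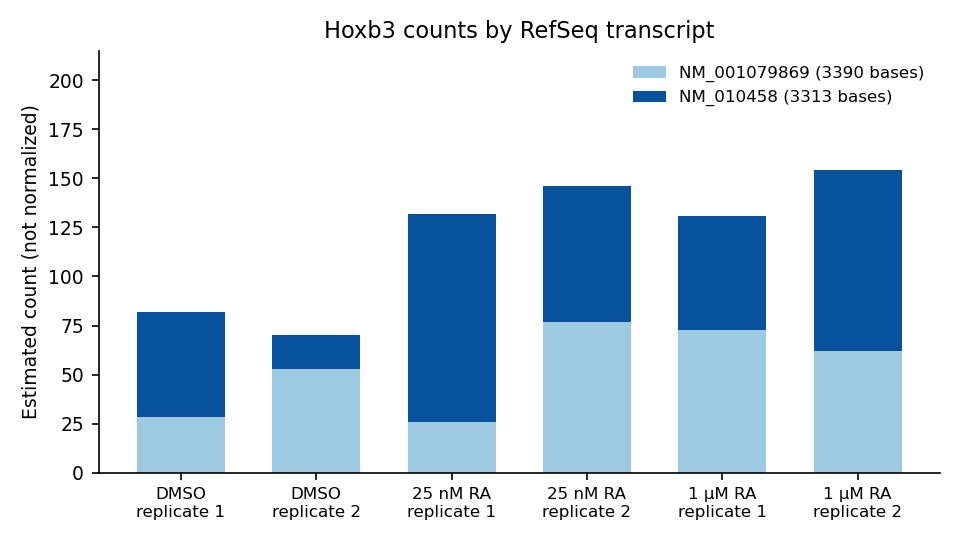
Estimated counts, not normalized, of the 2 RefSeq transcripts of *Hoxb3* in each sample, stacked so that the bar's height is the count of the gene. The summed counts were 82 and 70 in DMSO and 131 to 154 with RA, while the share of the darker NM_010458 ranged from 24.4% to 80.5% without following the conditions.

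*Hoxb4* had 0.0303 and 0.0461 RPKM in DMSO, 0.284 and 0.105 at 25 nM, and 0.207 and 0.275 at 1 µM RA. All 4 RA samples lay above both DMSO samples, but the duplicates at 25 nM were far apart. These levels rest on 4 and 5 counts in DMSO, 28 and 13 at 25 nM, and 23 and 31 at 1 µM. The exact Poisson 95% interval of the second sample with 25 nM RA, 0.175 to 0.563 CPM, overlapped those of the DMSO samples, which reached 0.244 and 0.340, whereas those of the samples with 1 µM RA began at 0.406 and 0.576. Its log2 fold changes were 2.28 (standard error 0.57, adjusted p = 3.0e-04, edgeR likelihood ratio test) at 25 nM and 2.64 (standard error 0.56, adjusted p = 1.7e-06) at 1 µM. The rises were 4.87-fold (95% interval 2.24 to 10.6) and 6.24-fold (2.90 to 13.4), the largest of the members tested and the least precise. Without the first sample with 25 nM RA the log2 fold change at that dose was 1.46 and the call was lost (adjusted p = 0.23), with the remaining sample assumed to vary like the others.

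*Hoxb9*, a gene of the thoracic trunk, had 0.158 and 0.131 RPKM in DMSO, 0.183 and 0.153 at 25 nM, and 0.0854 and 0.126 at 1 µM RA. The samples with 1 µM RA were the lowest, and the higher of them was only just below the lower DMSO sample, on counts of 10 and 15 against 22 and 15. The log2 fold change of *Hoxb9* was 0.18 (95% interval -0.49 to 0.86, adjusted p = 0.90, edgeR likelihood ratio test) at 25 nM and -0.47 (-1.22 to 0.29, adjusted p = 0.46) at 1 µM. Neither passed the test, and at this depth a fall to 0.43 of the DMSO level or a rise of 1.22-fold at 1 µM lay within the interval.

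The trunk genes between *Hoxb4* and *Hoxb9* were near the limit of detection. *Hoxb5* to *Hoxb8* together had 15 and 9 counts in DMSO, 14 and 16 at 25 nM, and 15 and 6 at 1 µM RA, out of at least 546 HoxB counts per sample. *Hoxb5*, known from neural crest of the gut, had 3 and 0 counts in DMSO, 1 and 3 at 25 nM and 5 and 2 at 1 µM. *Hoxb6* had between 1 and 4 counts in every sample. *Hoxb7* had 5 and 1 counts in DMSO, 10 and 7 at 25 nM, and 7 and 1 at 1 µM. Both samples with 25 nM RA lay above both DMSO samples in RPKM, as did 1 of the samples with 1 µM RA. *Hoxb8* had 5 and 4 counts in DMSO, 1 and 5 at 25 nM, and 1 and 0 at 1 µM. Both *Hoxb8* samples with 1 µM RA lay below both DMSO samples, as did the first with 25 nM RA. With an upper limit of 3 counts, the count of 0 allows up to 0.0820 CPM for *Hoxb8* in the second sample with 1 µM RA. In the second DMSO sample it allows up to 0.0874 for *Hoxb5*. The exact Poisson 95% intervals of these counts reached 0.101 and 0.107 CPM.

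*Hoxb13*, at the far 5′ end, had 0 and 2 counts in DMSO, 5 and 4 at 25 nM, and 6 and 0 at 1 µM RA. The samples with 25 nM RA lay above DMSO, and those with 1 µM RA spanned the whole range. In a fit without the filter on low counts, the log2 fold change of *Hoxb13* was 2.14 at 25 nM (adjusted p = 0.30, edgeR likelihood ratio test) and that of *Hoxb7* was 1.59 (adjusted p = 0.25). *Hoxb8* was called lower at 1 µM in that fit alone (log2 fold change -2.80, adjusted p = 0.082), on 9 counts in DMSO against 1. With the filter in place these 5 rare genes were not tested.

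Along the chromosome, the 4 genes called were neighbours, within 47.5 kb of the *Hoxb1* start. *Hoxb5*, *Hoxb6*, *Hoxb7* and *Hoxb8*, the next in position, were not tested, so where the response ended along the cluster was not determined. Of 32 genes listed for the neighbourhood of the cluster or lying within 500 kb of it, 27 were in the files and 19 were tested. None of these 19 was called at 25 nM RA by the edgeR likelihood ratio test, where 8.05% of all genes tested were. A count of 0 among 19 does not set these genes apart, and their median log2 fold change was 0.02. At 1 µM RA 1293 of the 15143 genes tested were called higher and 1690 lower. Of the 19, none was called higher and 2 were called lower, with a median of -0.07. These were *Igf2bp1*, encoding an mRNA-binding protein, which fell by 0.23 on the log2 scale (adjusted p = 2.5e-05, edgeR likelihood ratio test), 409 kb upstream of the *Hoxb1* start, and *Gm11517*, which fell by 0.90 (adjusted p = 0.034), 430 kb downstream. *Skap1*, encoding an adaptor protein of T cells and the nearest tested gene beyond *Hoxb1*, had -0.57 (adjusted p = 0.18) and -0.25 (adjusted p = 0.52). Within the cluster, the noncoding genes *Hoxb5os* (0 or 1 count per sample) and *Gm53* (0 to 6 counts) were too rare to test.

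**Figure D3:**
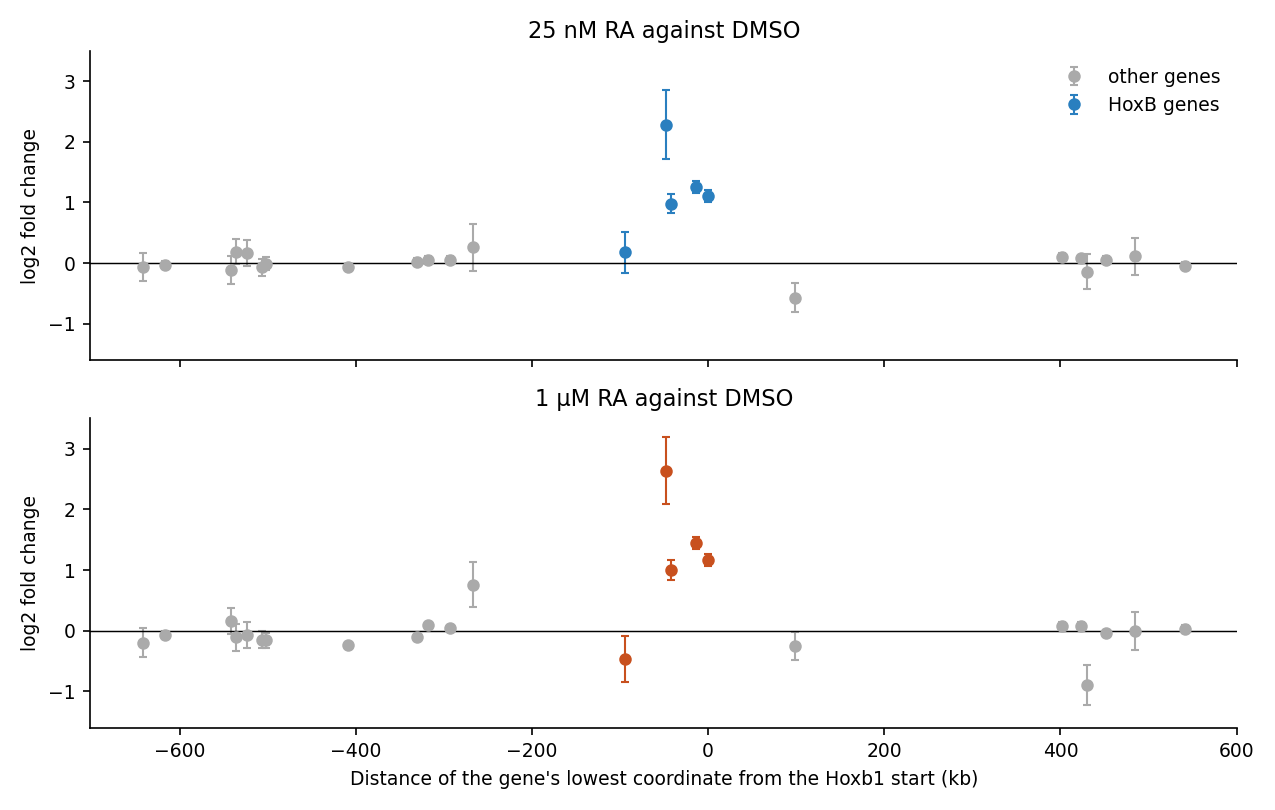
Log2 fold change against DMSO (points, with standard errors of the fit as bars) of the tested HoxB genes (coloured) and of the other tested genes of the neighbourhood (grey), against distance in kb from the *Hoxb1* start (negative is toward *Hoxb13*), at 25 nM RA (top) and 1 µM RA (bottom). The 4 HoxB genes with log2 fold changes of 0.98 to 2.64 stand together, and *Hoxb9*, 94.4 kb upstream, lies at 0.18 and -0.47. The HoxB genes between *Hoxb4* and *Hoxb9* were not tested and are not shown.

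The difference between the doses could be bounded closely for *Hoxb1*, *Hoxb2* and *Hoxb3*, and not for *Hoxb4* or *Hoxb9*. When 1 µM RA was tested directly against 25 nM RA, 0 of the 5 members tested were called by edgeR's likelihood ratio test, where 3.41% of all genes tested were, so that a count of 0 does not set the members apart. edgeR's quasi-likelihood test also called 0 of the 5, DESeq2 called 0 of the 2 to which it gave an adjusted p (*Hoxb1* and *Hoxb2*), and 1 member, *Hoxb2*, had an unadjusted p under 0.05. The log2 difference of *Hoxb2* was 0.18 (95% interval 0.01 to 0.35, adjusted p = 0.35), and both samples with 1 µM RA lay above both with 25 nM. For *Hoxb1* it was 0.06 (-0.12 to 0.24) and for *Hoxb3* 0.02 (-0.25 to 0.29), with overlapping samples. The intervals of *Hoxb4*, 0.36 (-0.37 to 1.08), and *Hoxb9*, -0.65 (-1.40 to 0.09), were wide. As a description, the mean rise in RPKM at 25 nM was 92.7% of that at 1 µM for *Hoxb1*, 81.5% for *Hoxb2* and 98.4% for *Hoxb3*. Over every combination of single samples, DMSO included, the ranges were 80.0% to 103%, 77.8% to 84.9% and 73.5% to 132%. For *Hoxb4* the mean rise at 25 nM was 77.1% of that at 1 µM, with a range of 25.7% to 148% that leaves it undetermined.

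**Figure D4:**
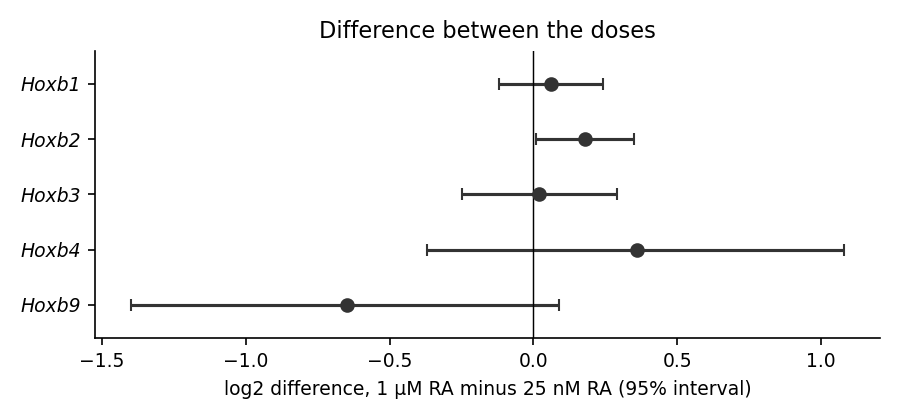
Log2 difference between 1 µM and 25 nM RA for the 5 HoxB genes tested (points), with 95% intervals from the standard error of the fit (bars). *Hoxb2* at 0.18 is the only interval that does not reach 0, and *Hoxb4* and *Hoxb9* have the widest intervals.

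The other Hox clusters were mostly too low to test beside the HoxB genes. Of 28 listed genes of the other 3 clusters that are reported here, 26 were in the files and 4 were tested. At each dose 2 of these 4 rose, *Hoxa2* and *Hoxa5*, where 4.5% of all genes tested were called higher at 25 nM and 8.54% at 1 µM. None of the 9 *Hoxc* genes was tested, and of the *Hoxd* genes only *Hoxd13* was (log2 fold change -0.20 at 25 nM and -0.21 at 1 µM, not called). The median log2 fold change of the 4 genes was 1.86 at 25 nM and 1.92 at 1 µM. *Hoxa3* (8 and 11 counts in DMSO) and *Hoxa5* (11 and 5) would not have entered the test without their counts in the RA samples. The count of genes that rose and the median therefore follow in part from the filter.

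*Hoxa2*, the paralogue of *Hoxb2*, had log2 fold changes of 2.78 (standard error 0.23) at 25 nM and 2.92 (standard error 0.23) at 1 µM, where *Hoxb2* had 1.26 and 1.44. Its mean level was 0.299 RPKM in DMSO, 2.05 at 25 nM and 2.26 at 1 µM, below that of *Hoxb2* in each condition. *Hoxa3* had 0.94 (standard error 0.42) and 0.92 (standard error 0.42) and was not called, values close to those of *Hoxb3*, which was. *Hoxa5*, a gene of the neck and lung, rose with log2 fold changes of 2.82 and 3.05 to means of 0.648 and 0.764 RPKM, whereas *Hoxb5* had at most 5 counts in a sample. Between the doses *Hoxa2* had a log2 difference of 0.14 and *Hoxb2* of 0.18, and neither was called. No test was made between the paralogues.

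**Figure D5:**
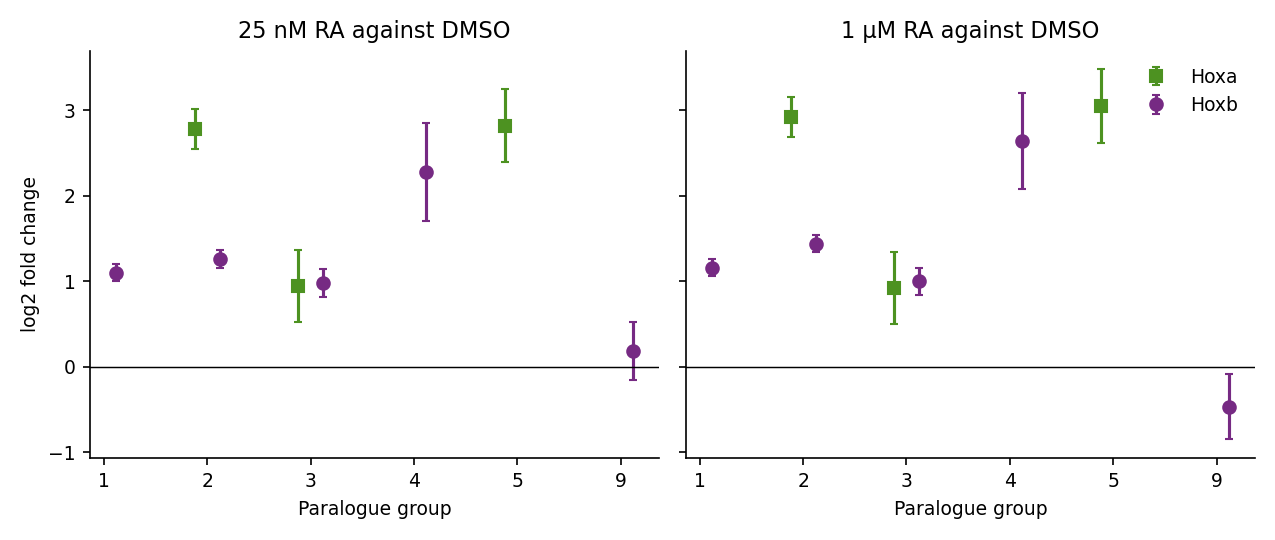
Log2 fold change against DMSO, with standard errors of the fit as bars, of the tested *Hoxa* (squares) and *Hoxb* (circles) genes reported here, by paralogue group, at 25 nM RA (left) and 1 µM RA (right). In group 2 the *Hoxa* gene lies above the *Hoxb* gene (2.78 against 1.26 at 25 nM), and in group 3 they nearly coincide.

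Among 15 reported genes known as regulators or cofactors of Hox genes, 14 were tested. The lower dose gave 5 that rose and 1 that fell, with a median log2 fold change of 0.14. The higher dose gave 5 that rose and 2 that fell, with a median of 0.04. Over all genes tested, 8.05% were called at 25 nM and 19.7% at 1 µM, in either direction. *Cdx1*, a caudal-type homeobox factor that acts upstream of Hox genes, rose from a mean of 6.36 RPKM to 21.8 and 24.4. *Meis2*, a homeodomain partner of Hox proteins, rose from 0.874 to 4.96 and 6.61 RPKM. *Pbx2*, another partner, had log2 fold changes of 0.55 and 0.64, and *Gbx2*, a homeobox gene of the early neural plate, 3.13 and 3.66. *Cdx2* was called at 25 nM (0.24) and *Pknox1* at 1 µM (0.16), both with small values. *Egr2* (Krox20), an activator of *Hoxb2* in hindbrain segments, fell by 0.95 on the log2 scale at 1 µM RA. *Pbx3* fell at both doses (-0.18 and -0.27). These genes were described for their own values, and their part in the HoxB values was not tested.

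The genes whose pair of log2 fold changes lay nearest to that of a HoxB gene, among 1003 genes called at both doses, were the following. For *Hoxb1* they were *Lypd6* (1.11 at 25 nM and 1.16 at 1 µM), *Dusp5* (1.08 and 1.22) and *Zfp429* (1.17 and 1.12). For *Hoxb2* they were *Jakmip3* (1.25 and 1.48), *Enpp4* (1.29 and 1.48) and *Tcf15* (1.28 and 1.40), and for *Hoxb3* they were *Ppl* (1.00 and 1.02), *Nkx1-2* (1.02 and 0.98) and *Fam101b* (0.94 and 1.03). For *Hoxb4*, in a sparser range, they were *Camk2n1* (2.36 and 2.61), *Mmp9* (2.46 and 2.63) and *Adm* (2.49 and 2.65). The distances on the log2 scale ran from 0.0128 for *Lypd6* to 0.209 for *Adm*. Nearness here rests on 3 condition means from 6 samples.

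Markers of cell types also differed between the conditions in which the HoxB genes differed. For comparison with the counts below, 8.05% of all genes tested were called at 25 nM and 19.7% at 1 µM, in either direction. Of the 9 NMP markers tested 6 rose and 1 fell at 25 nM, and 5 rose and 1 fell at 1 µM, with summed levels of 515 to 526 RPKM in DMSO, 601 to 618 at 25 nM and 596 to 615 at 1 µM. Of 4 presomitic mesoderm markers tested, 3 fell and 1 rose at each dose (summed 64.9 to 65.9 RPKM in DMSO, 47.2 to 50.9 and 42.3 to 42.9 with RA). Of 5 endoderm markers, 4 fell at each dose (52.3 to 53.3, then 40.5 to 40.8 and 39.1 to 41.0 RPKM). Of 6 pluripotency markers 1 rose at each dose (459 to 482, 461 to 496 and 478 to 490 RPKM), and of 5 committed neural markers none was called at 25 nM and 1 fell at 1 µM (12.6 to 12.7, 11.9 to 12.6 and 10.9 to 11.2 RPKM). The 8 markers of feeder fibroblasts summed to 7.04 to 7.14 RPKM in DMSO and to 8.78 to 8.95 with RA. Only *Pdgfrb* was called higher, at both doses, from a mean of 1.15 to 3.13 and 3.68 RPKM, a larger rise than that of the sum. Of the others, 3 fell at 1 µM, and *Lum* had 0 to 2 counts per sample. In DMSO *Pou5f1* alone had a mean of 445 RPKM and *T* of 375 RPKM, so these genes made up most of the pluripotency and NMP sums. The mean of *T* was 375.1 RPKM at 25 nM and 370.2 at 1 µM, so the higher NMP sums with RA came from other markers. Among the NMP markers called at both doses, *Nkx1-2* rose from a mean of 39.11 to 79.55 and 77.7 RPKM, while only *Fgf8* fell, from 58.35 to 50.73 and 48.99. The part of any of these cell types in the HoxB levels was not tested.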

How the data were processed

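RNA-seq of ribosomal RNA-depleted total RNA (stranded kit, 50-base single-end reads) was analysed for 6 samples, grouped by their labels. The authors aligned reads to mm10 with TopHat (TopHat2 2.0.13 and Bowtie2 2.2.5.0 in the submitters' processing notes, with Partek 6.6) and estimated the abundance of RefSeq transcripts by expectation-maximization. The estimated counts were deposited by the authors without normalization, and their RPKM values scale these by transcript length and reads per sample, as the authors calculated them. Use of strand in counting is not given in the sources used here.

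Here estimated counts were summed per gene, rounded and fitted in edgeR 4.0.16 (R 4.3.3) with TMM, filterByExpr and the likelihood ratio test of the study's methods. A single model held all 6 samples, with a coefficient for each condition. Benjamini-Hochberg adjustment was over 15143 genes, and genes with an adjusted p under 0.1 were called. RPKM was summed per gene. Totals of 31753556 to 42029348 estimated counts per sample set the precision. Exact Poisson intervals (95%) and the upper limit of 3 counts for a count of 0 cover counting error only. Intervals of fold changes are the estimate with its standard error at 95%.

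The members and gene lists were chosen with earlier results of these data known. All 10 members are named, with the called genes of each list and the 3 genes nearest to each member called at both doses by Euclidean distance between pairs of log2 fold changes. A few uncalled genes of the lists, such as *Skap1*, *Hoxa3*, *Cdx4*, *Lum* and *Pou5f1*, were added after their values were seen. Some genes of the lists are not reported here. The results were recomputed with DESeq2 1.42.0 or its size factors, with edgeR's quasi-likelihood test, with other filters, on single transcripts, on 4 samples at a time, with a replicate block, with other thresholds and without each sample. The fit was tested on simulated data with 200 genes changed by a fold change of 2. Upstream sequences and gene spans are from RefSeq (GRCm38.p6) and GENCODE annotations. Python 3.11.15 was used with pandas 2.3.3, scipy 1.17.1 and matplotlib 3.10.9.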

Additional observations from a re-analysis of the deposited data

How the results depend on the processing

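At both doses the calls of *Hoxb1* and *Hoxb2* against DMSO were kept under every alternative run. With the study's list thresholds (log2 fold change above 1 and mean RPKM above 1 for a rise) 2 members instead of 4 were called at 25 nM RA and 2 at 1 µM RA, *Hoxb1* and *Hoxb2*. With transcripts not summed, *Hoxb3* was not called (log2 fold changes of 1.51 at 25 nM and 1.22 at 1 µM for NM_010458, which has the higher mean RPKM over all 6 samples and the lower count in 3 of them, and 0.35 and 0.78 for NM_001079869), and the difference of NM_010458 between the doses was -0.28. Filtering at 1 CPM in at least 2 samples removed *Hoxb4* and *Hoxb9*, and DESeq2 gave no adjusted p for *Hoxb4* and *Hoxb9* at 1 µM, nor for *Hoxb3*, *Hoxb4* and *Hoxb9* between the doses.

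With each sample left out in turn, 3 to 4 members were called at 25 nM, 4 at 1 µM and 0 between the doses. The log2 fold change of *Hoxb4* at 25 nM ranged from 1.46 to 2.87, and that of *Hoxb3* from 0.90 to 1.07. The difference between the doses ranged from -0.02 to 0.14 for *Hoxb1*, -0.08 to 0.11 for *Hoxb3* and -0.23 to 1.18 for *Hoxb4*. It turned negative for all 3 without the second sample with 25 nM RA (-0.02, -0.07 and -0.23), and for *Hoxb3* without the second sample with 1 µM RA (-0.08). None of these differences was called in the fits that gave it an adjusted p.

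The replicate numbers showed no sign of pairing the samples: same-numbered samples had deviations correlated at -0.0409, 0.0484 and -0.0615 over 15143 genes. These values cannot show whether same-numbered dishes were handled together. With the replicate block 4, 4 and 0 members were called, and no call changed. With 2 dishes per condition of one experiment, variation between experiments was not measured. For the 5 genes under the filter, depth leaves changes of several-fold undetectable.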
